A study of Homo sapiens with 24 samples.

Results

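The genes described here make sterols and fatty acids in the cell or steer that synthesis through the sterol regulatory element binding proteins (SREBPs). The set was a list of 31 genes with these functions, chosen with earlier results of these data known. Counts of its genes beside the share of all genes are therefore a description. In the list, 18 genes encode sterol steps, 8 encode fatty acid steps and 5 encode SREBP regulators or sterol carriers. Of these, 28 could be tested among the 10971 genes that passed the filter, namely 16 sterol, 7 fatty acid and 5 regulator genes. The sterol genes FDFT1 and CYP51A1 and the fatty acid gene FADS1 were not analysed here, because no probe set was listed for them alone. Each gene was read from its probe set with the highest mean, and 16 of the 28 had more than 1 probe set.

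The samples came from 2 established human leukemia lines that carry a rearranged MLL gene. MV4-11 is a biphenotypic B myelomonocytic line with the MLL-AF4 fusion, grown in IMDM with serum, and MOLM-13 is an acute myeloid line with the MLL-AF9 fusion, grown in RPMI with serum. MV4-11 cultures received 3 uM EPZ004777, an inhibitor of the histone methyltransferase DOT1L, or vehicle (0.1% DMSO), and were sampled on days 2, 4 and 6. MOLM-13 cultures received the same agent, dose or vehicle and were taken on day 6 only. This gave 8 groups of 3 biological replicates, 24 arrays in all, with no untreated culture and no second inhibitor among them. The labels leave unsaid whether 1 MV4-11 culture was sampled on several days, and the tests between days treat all arrays as independent. Each fusion is represented by 1 line, and medium differs between the lines, so line, fusion and medium cannot be told apart.

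Cholesterol is built from acetyl-CoA through mevalonate, isoprenoid units, squalene and lanosterol, and fatty acids are built from the same acetyl-CoA through malonyl-CoA. Both routes are switched on by SREBPs, membrane-bound transcription factors that SCAP escorts from the endoplasmic reticulum to the Golgi, where proteases release the active part. When sterols are plentiful, INSIG proteins hold SCAP and the SREBPs back. SREBF2 is known chiefly for the sterol genes and SREBF1 for the fatty acid genes.

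All levels below are log2 intensities, and a difference of 1 on this scale is a doubling of the signal. A change is treated minus vehicle from a limma model of all 24 arrays, with its standard error (SE), and a gene is called changed at an adjusted p (Benjamini-Hochberg, over the 10971 genes) under 0.05. Levels of different probe sets are not compared, since probe sets differ in affinity. In bulk RNA, fewer cells of a kind and less RNA per cell cannot be told apart. The myeloid markers SPI1 (8.25 to 9.39) and LYZ (13.8 to 15.4) were present in every array, while CD14 was below 4 in 21 of 24. Of 3 B cell markers listed, CD79A and MS4A1 were below 4 in all 24 arrays and PAX5 in 8. The T cell genes CD3E and CD2 and the erythroid and epithelial markers were likewise below 4 throughout, while CD3D reached 8.31 in MOLM-13 and the fibroblast gene COL1A1 stood at 6.73 to 7.92 in all arrays with COL1A2 and COL3A1 below 4. RNA ends differed between groups. The 3′ minus 5′ difference between control probe sets of ACTB and GAPDH, which grows as RNA shortens, was 0.525 to 0.817 in the arrays of MV4-11 days 2 and 4 and 0.567 to 0.583 in MV4-11 day 6 vehicle. It was 0.826, 0.861 and 1.91 in MV4-11 day 6 treated cultures, 0.954 to 1.15 in MOLM-13 vehicle and 2.10 to 2.84 in MOLM-13 treated cultures.

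In MV4-11 cells most of the 28 genes were lower in treated cultures on days 4 and 6, while on day 2 fewer were called and the differences were smaller. On day 2, 13 of the 28 genes fell and 0 rose, against 3.68% of all genes called lower and 8.82% called higher. The 13 were 8 of 16 sterol genes, 4 of 7 fatty acid genes and 1 of 5 regulators. On day 4, 25 fell and 0 rose, against 21% of all genes called lower and 25.2% called higher. On day 6, 23 fell and 2 rose, against 28.4% and 33.6% of all genes. The median change of the 28 genes was -0.29 on day 2, -1.37 on day 4 and -1.44 on day 6, while the median over all genes tested was 0.02, 0.01 and 0.04. The day 2 count fell when single arrays were left out. It was 3 without vehicle replicate 1, 8 without vehicle replicate 3, 4 without EPZ004777 replicate 2 and 6 without EPZ004777 replicate 3. Calls were lost without a turn of sign. Without vehicle replicate 1, for example, MSMO1 changed by -0.50 (adjusted p = 0.0569) and FASN by -0.44 (adjusted p = 0.0595). The day 6 count was 23 also without EPZ004777 replicate 3, the array with the largest 3′ minus 5′ difference of that group.

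**Figure D1:**
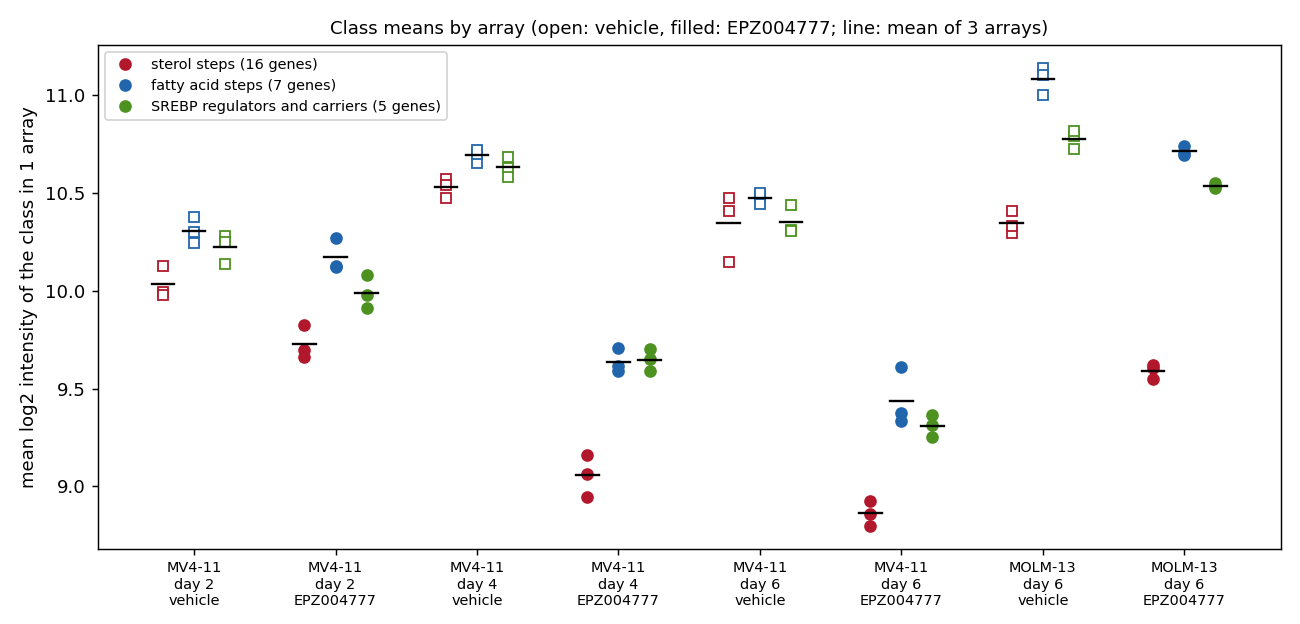
Mean log2 intensity of the sterol genes (16), fatty acid genes (7) and SREBP regulators and carriers (5) in each array, by line, day and treatment. Open squares are vehicle arrays, filled circles EPZ004777 arrays and lines the mean of 3 arrays; in each of the 3 MV4-11 days the sterol means of treated arrays lie below those of vehicle arrays.

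Averaged per array, the sterol genes stood at 10.13, 10.00 and 9.98 in day 2 vehicle and at 9.83, 9.70 and 9.66 in day 2 treated cultures. On day 4 the same mean was 10.57, 10.48 and 10.54 in vehicle against 9.16, 8.95 and 9.06 in treated cultures, and on day 6 it was 10.48, 10.41 and 10.15 against 8.93, 8.86 and 8.80. The treated and vehicle arrays did not overlap on any day, and the group means differed by -0.30, -1.47 and -1.48. The fatty acid mean differed by -0.14, -1.05 and -1.04 and the regulator mean by -0.23, -0.98 and -1.04. The sterol mean therefore changed more than the other class means on each MV4-11 day. Median changes of the sterol and fatty acid genes lay closer together. They were -0.33 and -0.28 on day 2, -1.42 and -1.08 on day 4, and -1.52 and -1.40 on day 6. The fatty acid mean includes ELOVL6 and ACSS2, neither of them called lower on day 2 or day 6. Within each array, sterol minus fatty acid was -0.08 to -0.23 in day 4 vehicle and -0.55 to -0.64 in day 4 treated cultures. On day 6 it was -0.01 to -0.29 in vehicle and -0.45 to -0.81 in treated cultures. These class means are a description, with no test, and they depend on the probe sets taken. With the mean of all probe sets of a gene, the fatty acid class differed by -1.24 on day 6 in place of -1.04, and the sterol class by -1.42 in place of -1.48.

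**Figure D2:**
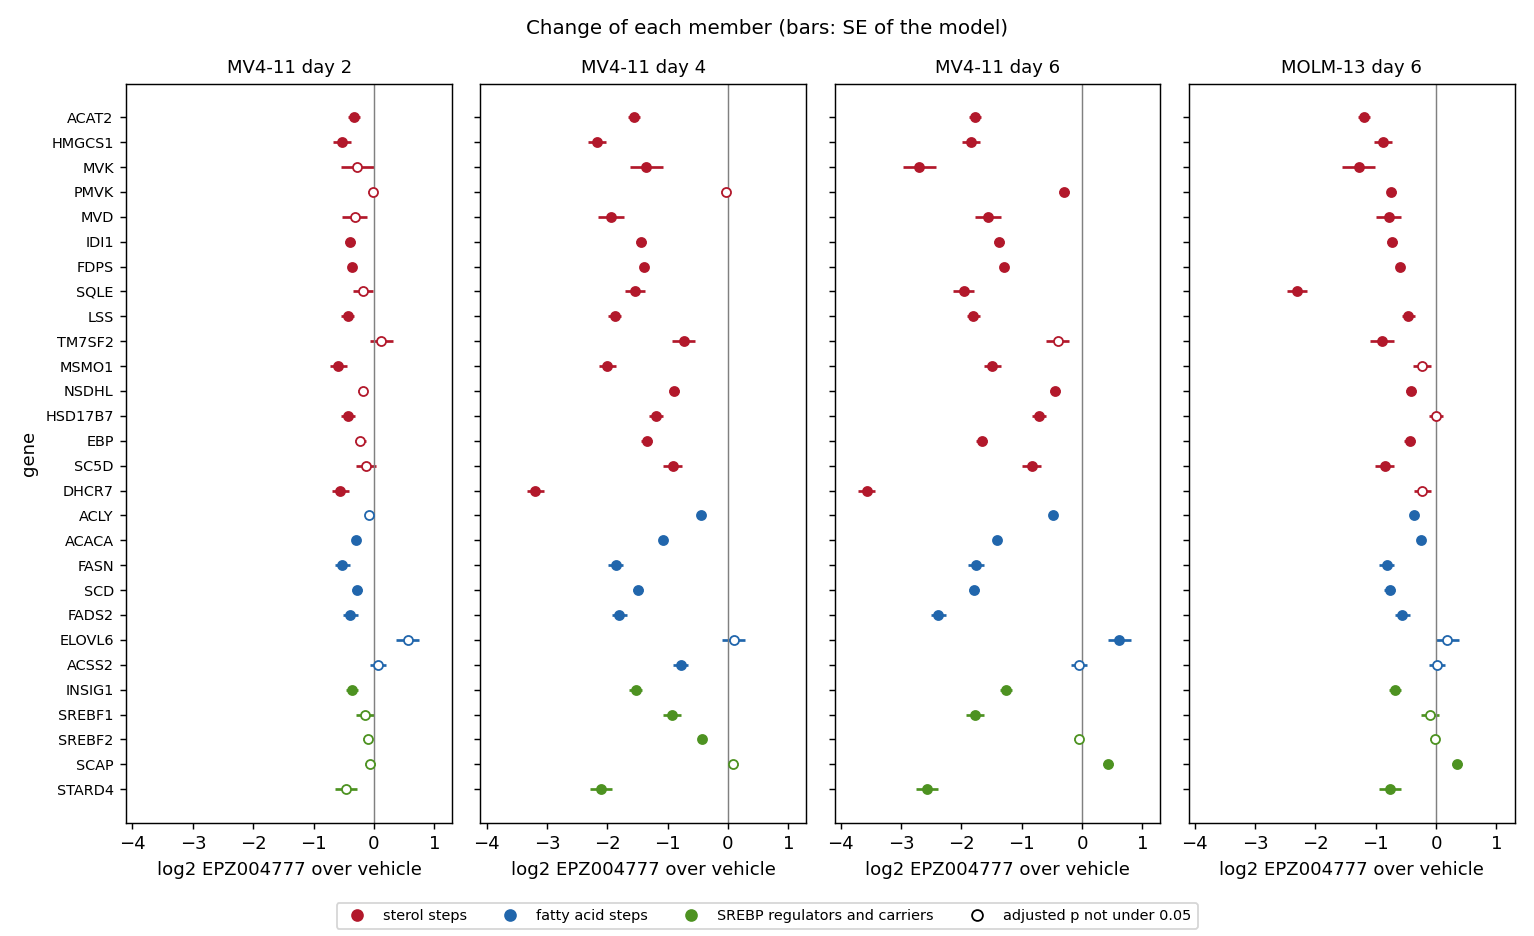
Log2 change (EPZ004777 over vehicle) of the 28 genes in the 3 MV4-11 comparisons and in MOLM-13, with bars for the SE of the model. Filled points passed an adjusted p of 0.05; DHCR7 lies farthest to the left on MV4-11 days 4 and 6, and SQLE does so in MOLM-13.

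The first steps of the sterol route make mevalonate from acetyl-CoA. ACAT2, the cytosolic thiolase that joins acetyl-CoA units, read 11.18, 11.02 and 11.05 in day 2 vehicle and 10.81, 10.74 and 10.69 in treated cultures. On day 6 it read 11.59, 11.52 and 11.22 in vehicle and 9.78, 9.63 and 9.60 in treated cultures, with no overlap on either day. ACAT2 fell, with changes of -0.34 (SE 0.10, adjusted p = 0.0283) on day 2, -1.56 (SE 0.10, adjusted p = 1.45e-10) on day 4 and -1.77 (SE 0.10, adjusted p = 1.27e-11) on day 6. HMGCS1, which condenses the next acetyl-CoA into HMG-CoA, changed by -0.53, -2.17 and -1.83 on the 3 days, all called. The kinase MVK changed by -0.28 on day 2, which was not called, and fell, changing by -1.35 on day 4 and -2.69 on day 6. Its treated arrays on day 6 read 5.37, 4.90 and 4.42 against 7.89, 7.66 and 7.21 in vehicle. The other probe sets of MVK fell on day 4, changing by -1.38 and -0.33. On day 6 the former read 4.79, 5.31 and 5.25 in treated cultures against 6.78, 6.48 and 6.43 in vehicle. The latter read 6.04, 6.11 and 6.07 against 6.24, 6.45 and 6.37.

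PMVK, the next kinase, stood apart from its neighbours in the route. It read 10.57 in each of the 3 day 2 vehicle arrays and 10.65, 10.47 and 10.53 in treated ones. On day 4 the vehicle arrays read 10.34, 10.21 and 10.08 and the treated arrays 10.16, 10.20 and 10.16. Its changes of -0.02 and -0.04 were not called, and on day 6 it fell by 0.30 (SE 0.08, adjusted p = 0.00227). PMVK was singled out after its values were seen.

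MVD, the decarboxylase that yields the first isoprenoid unit, changed by -0.32 on day 2 (not called) and fell, with changes of -1.93 on day 4 and -1.56 on day 6. IDI1, which isomerises that unit, fell, changing by -0.40, -1.44 and -1.37 in its main probe set. FDPS, which chains isoprenoid units into farnesyl diphosphate, had small replicate spread. It read 12.63, 12.68 and 12.70 in day 2 vehicle and 12.35, 12.30 and 12.28 in treated cultures, then 13.14, 13.06 and 13.19 against 11.71, 11.74 and 11.75 on day 4. On day 6 it read 12.94, 12.91 and 12.70 against 11.62, 11.61 and 11.43, so the groups did not overlap on any of the 3 days. FDPS fell, with changes of -0.36 (SE 0.07, adjusted p = 0.00124), -1.39 (SE 0.07, adjusted p = 2.98e-12) and -1.30 (SE 0.07, adjusted p = 4.89e-12).

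Beyond squalene, SQLE, the epoxidase that opens the sterol-specific branch, changed by -0.18 on day 2 without a call and fell, changing by -1.54 and -1.96 on days 4 and 6. On day 2 its other probe sets changed by -0.60 and -0.90, both called, and by -0.20, not called. LSS, which closes the ring to lanosterol, fell, with changes of -0.44, -1.87 and -1.80. Among the enzymes that trim lanosterol, MSMO1 fell, changing by -0.59, -1.998 and -1.48 on the 3 days, and HSD17B7 fell, with changes of -0.44, -1.19 and -0.71 on the 3 days. NSDHL, which works with them in removing methyl groups, was not called on day 2 (-0.19) and fell, changing by -0.90 and -0.45. TM7SF2, a sterol reductase, was the least regular of the group: it changed by 0.12, -0.73 and -0.40, and only the day 4 value was called.

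EBP, the sterol isomerase, read 12.07, 11.85 and 11.87 in day 4 vehicle and 10.61, 10.54 and 10.59 in treated cultures. On day 6 it read 11.94, 11.95 and 11.91 against 10.45, 10.41 and 9.96. It fell, with changes of -1.35 (SE 0.09, adjusted p = 7.01e-10) on day 4 and -1.66 (SE 0.09, adjusted p = 1.78e-11) on day 6, after an uncalled -0.23 on day 2. The other probe sets of EBP changed on day 2 by -0.34, called, and by -0.25, not called. SC5D, the desaturase next in line, changed by -0.13 on day 2 (not called) and fell, changing by -0.91 and -0.83. DHCR7, the reductase at the end of the route, had the largest change of the 28 genes on days 4 and 6. It read 9.38, 9.24 and 9.05 in day 2 vehicle and 8.74, 8.59 and 8.68 in treated cultures. On day 4 it read 10.21, 9.99 and 10.27 against 7.32, 6.61 and 6.96, and on day 6 9.72, 9.68 and 9.32 against 5.87, 6.15 and 5.99. The groups did not overlap on any day, and the gap was widest on day 6. DHCR7 fell, with changes of -0.55 (SE 0.14, adjusted p = 0.0114) on day 2, -3.19 (SE 0.14, adjusted p = 7.25e-13) on day 4 and -3.57 (SE 0.14, adjusted p = 7.21e-14) on day 6, which is 11.9-fold on the linear scale. Its second probe set fell, changing by -3.26 and -4.00 on days 4 and 6.

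**Figure D3:**
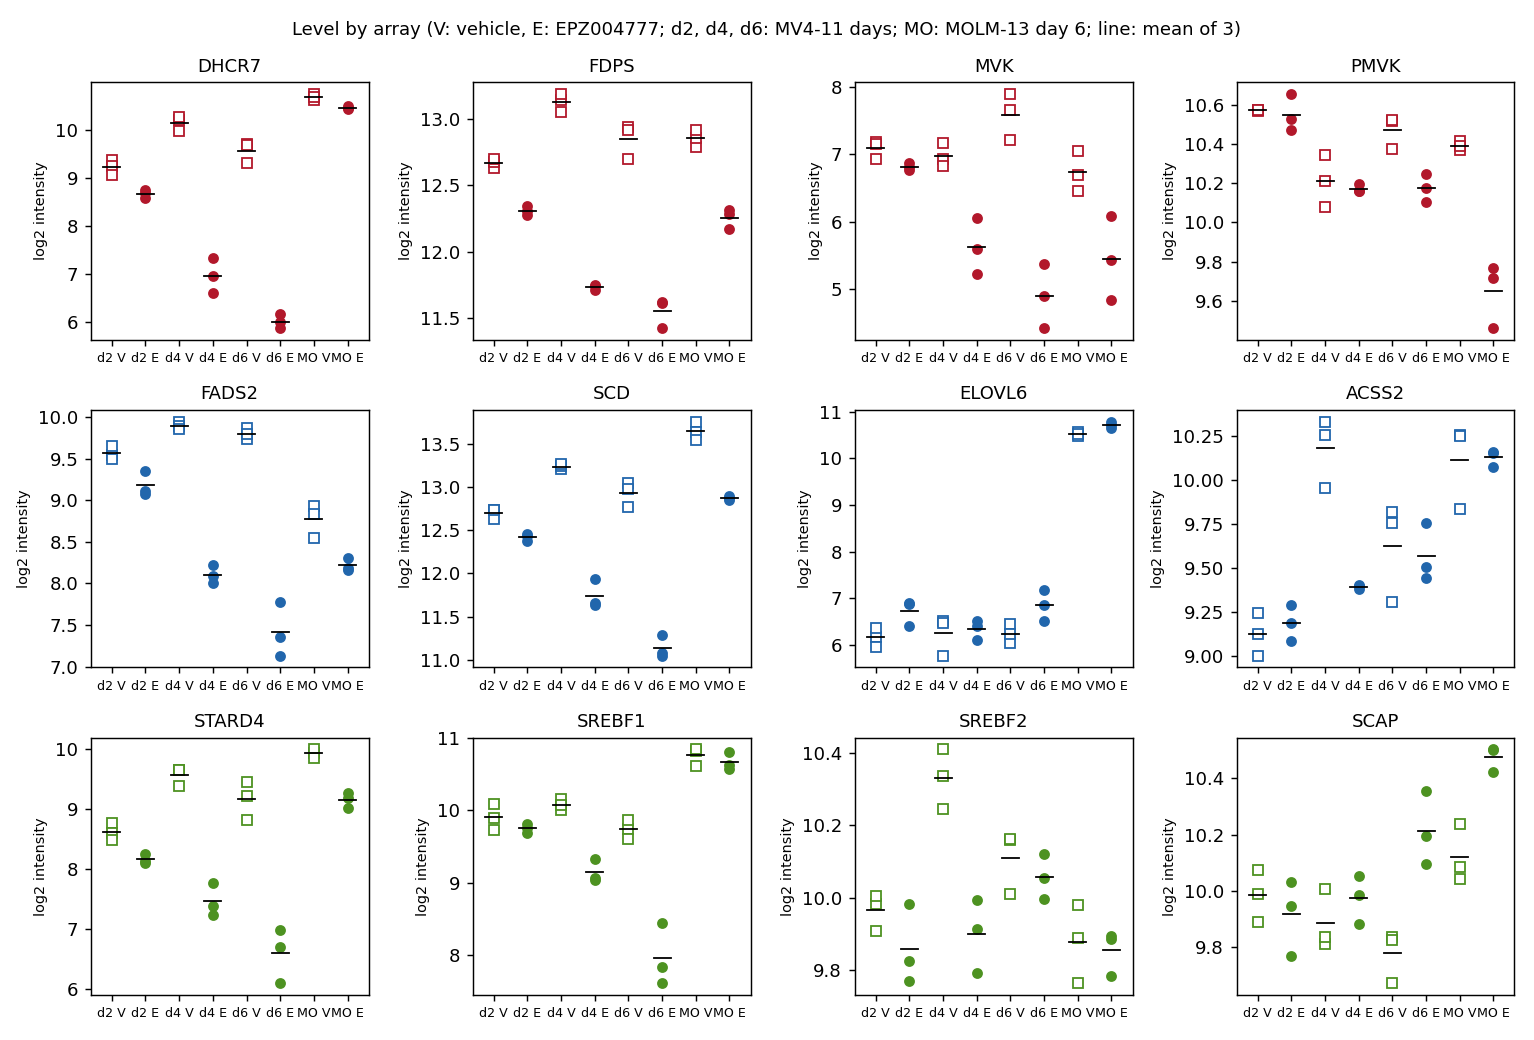
Log2 intensity of 12 genes in every array, with vehicle as open squares, EPZ004777 as filled circles and a line at the mean of 3 arrays. DHCR7, FDPS, MVK and PMVK are sterol genes, FADS2, SCD, ELOVL6 and ACSS2 fatty acid genes, and STARD4, SREBF1, SREBF2 and SCAP regulators or carriers; ELOVL6 is near 10.5 in MOLM-13 and between 5.77 and 7.18 in MV4-11.

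Of the 7 fatty acid genes, 6 fell on MV4-11 day 4, and on day 6 5 fell and 1 rose. ACLY, which supplies cytosolic acetyl-CoA from citrate, changed by -0.09 on day 2 (not called) and then by -0.45 and -0.49, both called. Its other probe sets fell more, with changes of -0.63 and -0.75 on day 4 and -1.46 and -1.08 on day 6. ACACA, the carboxylase that makes malonyl-CoA, read 9.93, 9.82 and 9.88 in day 2 vehicle and 9.66, 9.55 and 9.54 in treated cultures. The day 6 arrays read 9.87, 9.88 and 9.93 against 8.58, 8.50 and 8.40. It fell, with changes of -0.29 (SE 0.06, adjusted p = 0.00314), -1.08 (SE 0.06, adjusted p = 3.72e-11) and -1.40 (SE 0.06, adjusted p = 4.38e-13). FASN, the synthase itself, fell, changing by -0.52, -1.86 and -1.76 on the 3 days.

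SCD, which puts the first double bond into saturated chains, read 13.21, 13.24 and 13.26 in day 4 vehicle and 11.93, 11.66 and 11.63 in treated cultures. The day 6 arrays read 13.04, 12.98 and 12.77 against 11.08, 11.05 and 11.29. SCD fell, with changes of -0.28 (SE 0.08, adjusted p = 0.0339), -1.49 (SE 0.08, adjusted p = 2.63e-11) and -1.79 (SE 0.08, adjusted p = 9.33e-13). FADS2, a desaturase of polyunsaturated chains, read 9.95, 9.89 and 9.86 against 8.22, 8.09 and 8.01 on day 4 and 9.87, 9.73 and 9.79 against 7.13, 7.35 and 7.77 on day 6. It fell, changing by -0.39 (SE 0.12, adjusted p = 0.0423), -1.80 (SE 0.12, adjusted p = 5.22e-10) and -2.38 (SE 0.12, adjusted p = 4.71e-12).

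ELOVL6, which lengthens saturated chains, went the other way on day 6. Its vehicle arrays read 6.03, 6.44 and 6.23 and its treated arrays 6.86, 6.51 and 7.18, with no overlap. ELOVL6 rose by 0.62 (SE 0.19, adjusted p = 0.0084) on day 6, after uncalled changes of 0.56 on day 2 and 0.09 on day 4. Without day 2 EPZ004777 replicate 3, the day 2 change was called at 0.72 (adjusted p = 0.0329). The day 6 call was lost without EPZ004777 replicate 3, where the change was 0.45 (adjusted p = 0.0602), and its other probe sets changed by -0.35 and 0.22, neither called. ACSS2, which makes acetyl-CoA from acetate, read 9.25, 9.00 and 9.12 in day 2 vehicle and 9.29, 9.09 and 9.19 in treated cultures. Its day 6 vehicle arrays read 9.82, 9.76 and 9.31 and its treated arrays 9.45, 9.51 and 9.76, so the groups overlapped on both days. Its changes of 0.06 on day 2 and -0.06 on day 6 were not called, whereas on day 4 it fell by 0.79 against its own vehicle.

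The regulators did not change as 1 group. INSIG1, the sterol-sensing anchor that is itself a known SREBP target, read 13.13, 13.28 and 13.46 in day 4 vehicle and 12.03, 11.59 and 11.65 in treated cultures. On day 6 it read 13.01, 13.07 and 12.85 against 11.68, 11.79 and 11.67. INSIG1 fell, with changes of -0.37 (SE 0.10, adjusted p = 0.0208), -1.53 (SE 0.10, adjusted p = 3.49e-10) and -1.26 (SE 0.10, adjusted p = 2.89e-09). STARD4, a soluble carrier that moves cholesterol between membranes, read 9.66, 9.39 and 9.65 against 7.77, 7.24 and 7.38 on day 4. The day 6 arrays read 9.45, 9.22 and 8.82 against 6.99, 6.70 and 6.10. It changed by -0.46 on day 2 (not called) and fell, changing by -2.10 (SE 0.18, adjusted p = 1.46e-08) and -2.57 (SE 0.18, adjusted p = 4.55e-10).

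The SREBP genes themselves differed from each other. SREBF1 read 9.90, 10.09 and 9.73 in day 2 vehicle and 9.81, 9.69 and 9.76 in treated cultures, which overlapped. On day 4 it read 10.01, 10.16 and 10.07 against 9.03, 9.07 and 9.33, and on day 6 9.75, 9.60 and 9.86 against 7.84, 7.62 and 8.45. SREBF1 fell, with changes of -0.94 (SE 0.15, adjusted p = 3.59e-05) on day 4 and -1.77 (SE 0.15, adjusted p = 5.36e-09) on day 6. Its second probe set changed by -0.06 and 0.04 on those days, neither called. SREBF2 changed less. It read 10.34, 10.25 and 10.41 in day 4 vehicle and 9.79, 9.99 and 9.91 in treated cultures, and 10.16, 10.01 and 10.16 against 10.12, 10.06 and 10.00 on day 6. SREBF2 fell by 0.43 (SE 0.07, adjusted p = 7.01e-05) on day 4, and its changes of -0.11 on day 2 and -0.05 on day 6 were not called. A second probe set of SREBF2 fell by 0.58 on day 6.

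SCAP, the escort protein, was the only one of the 5 to rise. Its day 6 vehicle arrays read 9.83, 9.67 and 9.83 and its treated arrays 10.19, 10.09 and 10.35, with no overlap. SCAP rose by 0.44 (SE 0.08, adjusted p = 0.00016) on day 6, after -0.07 and 0.09 on days 2 and 4, neither called.

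Between days, the change of 27 of the 28 genes had a lower value on day 4 than on day 2. The 27 include ELOVL6, with uncalled rises of 0.56 and 0.09, and PMVK, with uncalled changes of -0.02 and -0.04. The difference between those changes was itself tested and was called for 24 genes, all toward a lower change on day 4, against 7.77% of all genes. MVK, PMVK, ELOVL6 and SCAP were the 4 not called. The day 4 vehicle levels enter these differences. For ACSS2 the treated mean was 9.19 on day 2 and 9.39 on day 4, while the vehicle mean was 9.12 and 10.18. For SREBF2 the treated mean was 9.86 and 9.90 and the vehicle mean 9.97 and 10.33. All other genes called had a lower treated mean on day 4 than on day 2. Between days 4 and 6 there was no common direction. The fall was deeper on day 6 for 12 genes, and the difference was called lower for 4 genes (MVK, ACACA, FADS2 and SREBF1) and higher for 5 (NSDHL, HSD17B7, ACSS2, SREBF2 and SCAP). Over all genes, 11.9% were called lower and 13.9% higher in that comparison. The 5 became 3 without day 4 EPZ004777 replicate 3, day 6 vehicle replicate 2 or day 6 EPZ004777 replicate 3, and 1 with the 3′ minus 5′ difference as a covariate. With that covariate MVK (-0.84, adjusted p = 0.198) and ACACA (-0.18, adjusted p = 0.149) also lost their calls. SCD was then called lower at -0.42 (adjusted p = 0.0336). FADS2 lost its call without day 4 EPZ004777 replicate 1 (-0.52, adjusted p = 0.0514). When the probe sets of a gene were averaged, NSDHL (0.10, adjusted p = 0.579) and SREBF1 (-0.37, adjusted p = 0.137) lost their calls. The SREBF1 average includes its flat second probe set. With such averages SCD was called lower at -1.31 (adjusted p = 1.37e-05). These differences share the day 4 arrays with the day 4 comparison, so they are no separate support for it.

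Vehicle cultures were not level over time, which bears on the day 4 values. Against the vehicle cultures of days 2 and 6 together, 17 of the 28 genes were higher in day 4 vehicle and 1, PMVK, was lower, where 13.4% of all genes were called higher and 15.2% lower. The 17 were 10 sterol genes, 4 fatty acid genes and 3 regulators. ACSS2 showed the largest difference: it read 10.33, 9.95 and 10.26 on day 4, above the day 2 and day 6 vehicle arrays, and was higher by 0.81 (SE 0.11, adjusted p = 4.64e-05). HMGCS1 was higher by 0.77, DHCR7 by 0.76, LSS by 0.69, STARD4 by 0.67, MSMO1 by 0.67 and MVD by 0.65. Day 6 vehicle against day 2 vehicle gave 0 calls among the 28 genes by limma, against 1.12% of all genes in either direction. That count became 7, all higher, without day 6 vehicle replicate 3, whose sterol mean of 10.15 was below the 10.48 and 10.41 of the other day 6 vehicle arrays. Days 2 and 6 were thus not level either. Day 6 vehicle was higher by 0.31 in the sterol mean, and the median difference of the 28 genes was 0.21. Arrays of the 2 days did not overlap for 14 genes higher on day 6 and 2 lower. Over the 10971 genes, 1394 were so higher and 1366 lower. The labels do not say what differed in the day 4 vehicle cultures.

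Set against the 6 vehicle arrays of days 2 and 6 in place of its own vehicle, day 4 treatment still gave 23 of 28 genes lower and 0 higher, where 28% of all genes were called lower and 29.1% higher. The median change was -1.05 in place of -1.37, and the size was smaller for 24 of the 28 genes. Both comparisons share the treated arrays. The sterol class mean differed by -1.13, the fatty acid mean by -0.75 and the regulator mean by -0.64. DHCR7 changed by -2.44 (SE 0.12), and FASN, FADS2, STARD4 and HMGCS1 changed by -1.52, -1.58, -1.43 and -1.39.

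For 3 genes the day 4 call was lost against the vehicle cultures of days 2 and 6, and for PMVK a call was gained. ACSS2 fell by 0.79 against day 4 vehicle and changed by 0.02 (adjusted p = 0.91) against the others, since its treated arrays at 9.40, 9.40 and 9.38 lay within the range of day 2 and day 6 vehicle. SREBF2 fell by 0.43 against day 4 vehicle and changed by -0.14 (adjusted p = 0.0697) against the others, though this was called without day 4 EPZ004777 replicate 2 (-0.19, adjusted p = 0.0392) or day 6 vehicle replicate 2 (-0.16, adjusted p = 0.0387). It was also called with its probe sets averaged (-0.22, adjusted p = 0.00743) and with arrays shifted to a common median (-0.18, adjusted p = 0.0187). TM7SF2 fell by 0.73 against day 4 vehicle and changed by -0.21 (adjusted p = 0.3) against the others. PMVK was called in the opposite sense: not against day 4 vehicle, but lower by a fitted -0.35 (SE 0.07, adjusted p = 0.000156) against the others. SC5D kept its call with a change of -0.59, though its treated arrays overlapped the day 2 and day 6 vehicle arrays.

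**Figure D4:**
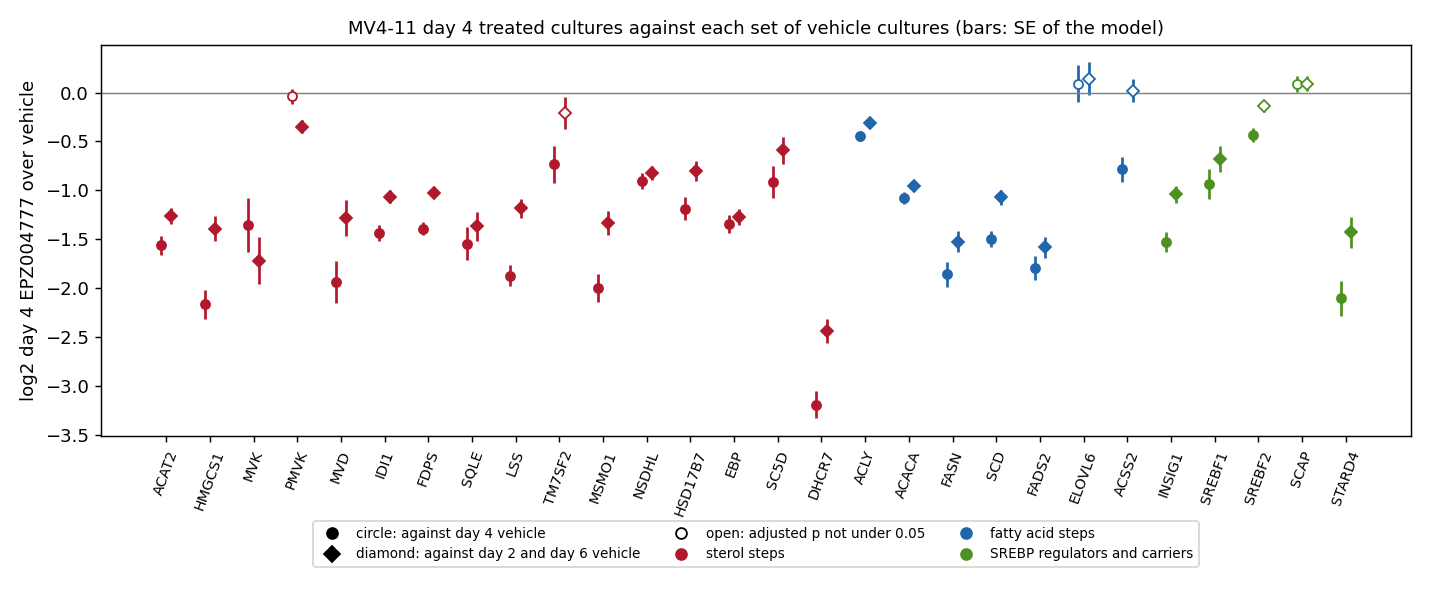
Log2 change of each gene on MV4-11 day 4 against day 4 vehicle (circles, 3 vehicle arrays) and against day 2 and day 6 vehicle together (diamonds, 6 vehicle arrays), with bars for the SE of the model. Most diamonds lie above their circles, and ACSS2, SREBF2 and TM7SF2 have an open diamond beside a filled circle.

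In MOLM-13 cells on day 6 the same genes were mostly lower, by smaller amounts. Of the 28 genes, 20 fell and 1 rose, against 36.5% of all genes called lower and 29.3% called higher. The 20 were 13 sterol genes, 5 fatty acid genes and 2 regulators, INSIG1 and STARD4. The median change was -0.58 over the 28 genes, -0.74 over the sterol, -0.37 over the fatty acid and -0.09 over the regulator genes, while over all genes it was -0.03. The difference between MOLM-13 and MV4-11 in the day 6 change was tested, and 18 genes had a smaller fall in MOLM-13, against 19.4% of all genes called in that direction. PMVK alone was called the other way, against 32.7% of all genes.

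DHCR7 had the largest difference between the lines. Its main probe set read 10.63, 10.75 and 10.70 in MOLM-13 vehicle and 10.49, 10.45 and 10.44 in treated cultures, a change of -0.23 (SE 0.14, adjusted p = 0.153). The change in MOLM-13 was thus 3.34 (SE 0.20, adjusted p = 6.83e-11) above that in MV4-11. Its other probe set read 9.92, 10.08 and 9.93 in vehicle and 8.61, 7.99 and 8.31 in treated MOLM-13 cultures and fell by 1.67. MSMO1 and HSD17B7, both called on all 3 MV4-11 days, changed by -0.23 and 0.01 in MOLM-13, neither called. PMVK read 10.41, 10.37 and 10.39 in vehicle and 9.71, 9.46 and 9.77 in treated cultures and fell by 0.74 (SE 0.08, adjusted p = 7.73e-08).

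Further sterol genes fell in MOLM-13, and all those named here except TM7SF2 also fell on MV4-11 day 6. ACAT2 read 11.17, 11.34 and 11.16 in MOLM-13 vehicle and 10.15, 10.02 and 9.90 in treated cultures, and fell by 1.20 (SE 0.10, adjusted p = 3.23e-09). FDPS read 12.79, 12.86 and 12.92 against 12.17, 12.28 and 12.32 and fell by 0.60 (SE 0.07, adjusted p = 2.27e-07). HMGCS1, MVK, MVD and IDI1 fell, changing by -0.88, -1.28, -0.79 and -0.73, and TM7SF2, SC5D, LSS and NSDHL by -0.89, -0.85, -0.46 and -0.42. The second probe set of HMGCS1 read 8.98, 9.44 and 9.07 in MOLM-13 vehicle and 6.85, 6.88 and 6.10 in treated cultures. On MV4-11 day 6 it read 9.96, 10.08 and 9.48 against 6.44, 6.05 and 3.94. That of NSDHL read 8.67, 8.91 and 8.66 against 7.86, 7.29 and 6.96 in MOLM-13. Its MV4-11 day 6 arrays read 9.41, 9.53 and 9.17 against 8.26, 8.32 and 7.69. These gaps were wider than in the probe sets used.

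Among the fatty acid genes in MOLM-13, SCD read 13.76, 13.64 and 13.54 in vehicle and 12.85, 12.89 and 12.88 in treated cultures and fell by 0.77. The other probe sets of SCD, all dimmer, fell in MOLM-13, with changes of -1.08, -3.21 and -2.90, and on MV4-11 day 6 they fell with changes of -2.96, -5.12 and -4.17 against the -1.79 of the brightest. FADS2 read 8.55, 8.93 and 8.84 against 8.30, 8.16 and 8.18 and fell by 0.56, and FASN, ACLY and ACACA fell, with changes of -0.82, -0.37 and -0.26. ACSS2 changed by 0.01 and ELOVL6 by 0.19, neither called. ELOVL6 differed between the lines in vehicle cultures: it read 10.49, 10.56 and 10.53 in MOLM-13 vehicle against 6.03, 6.44 and 6.23 in MV4-11 day 6 vehicle, 4.29 (SE 0.19, adjusted p = 1.01e-13) higher. SCAP again rose, from 10.04, 10.08 and 10.24 in vehicle to 10.42, 10.50 and 10.50, by 0.35 (SE 0.08, adjusted p = 0.00109). INSIG1 and STARD4 fell, changing by -0.68 and -0.77. SREBF1 read 10.60, 10.82 and 10.84 in vehicle and 10.62, 10.80 and 10.57 in treated cultures, which overlapped, and its change of -0.09 was not called. Its change in MOLM-13 was 1.67 (SE 0.21, adjusted p = 2.48e-06) above that in MV4-11. SREBF2 changed by -0.02, not called.

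In vehicle cultures of day 6, which received no EPZ004777, the lines differed in 17 of the 28 genes: 11 were higher in MOLM-13 and 6 lower, where 30.7% of all genes were called higher and 33% lower. Beside ELOVL6, DHCR7 was higher by 1.12, SREBF1 by 1.02, STARD4 by 0.77 and SCD by 0.71 on the log2 scale in MOLM-13. When the probe sets of SCD were averaged, that difference was 0.08 and not called. SQLE, FADS2 and MVK were among the lower ones in the probe sets used, with differences of -1.11, -1.03 and -0.86. Another SQLE probe set read higher in MOLM-13 vehicle, at 11.56, 11.83 and 11.86 against 11.16, 11.20 and 10.80. A dimmer SQLE probe set read lower, at 6.39, 7.06 and 4.85 against 9.40, 9.55 and 8.98, and the last overlapped between the lines. The dimmer probe sets of MVK overlapped too. MVK lost its call without MV4-11 vehicle replicate 1 (-0.70, adjusted p = 0.054) or MOLM-13 vehicle replicate 3 (-0.72, adjusted p = 0.0516). Medium and line cannot be told apart in these values.

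Probe sets of the same gene differed more from each other in MOLM-13 than on the first MV4-11 days. Over the 16 genes with more than 1 probe set, the median range of the change within a gene was 0.17 on MV4-11 day 2, 0.48 on day 4, 1.00 on day 6 and 1.09 in MOLM-13. Of the 57 probe sets of the 28 genes, 39 fell and 4 rose in MOLM-13, against 37.4% and 26.2% of all 20806 probe sets. On MV4-11 day 4, 48 fell and 0 rose, against 18.2% and 20.8% of all probe sets.

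SQLE shows the spread best. Its main probe set read 11.31, 11.60 and 11.01 in MOLM-13 vehicle and 9.39, 8.55 and 9.06 in treated cultures and fell by 2.31 (SE 0.17, adjusted p = 8.4e-10). Another probe set of SQLE read 11.56, 11.83 and 11.86 in vehicle and 12.11, 12.32 and 12.16 in treated cultures and rose by 0.45 (SE 0.12, adjusted p = 0.00348). The remaining probe sets of SQLE fell, with changes of -2.84 and -0.64. On MV4-11 day 4 all 4 probe sets of SQLE fell, with changes of -1.54 to -2.06. EBP behaved likewise: its main probe set read 11.95, 12.06 and 12.15 in MOLM-13 vehicle and 11.65, 11.57 and 11.63 in treated cultures and fell by 0.44. Another probe set of EBP read 11.93 to 12.03 in the 3 vehicle arrays against 12.10, 12.33 and 12.19 and rose by 0.22, and the remaining probe set fell by 1.06.

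Further genes had probe sets of opposite sign. The main probe set of IDI1 read 12.56, 12.78 and 12.61 in MOLM-13 vehicle and 11.85, 11.92 and 11.97 in treated cultures, whereas both dimmer probe sets outside the bright pair changed by 0.35 and 0.02, neither called. On MV4-11 day 6, the former of these rose by 0.39 while the main probe set fell by 1.37. The latter stayed between 6.31 and 6.55 in all arrays, vehicle and treated. The second probe set of FADS2 changed by 0.07 in MOLM-13, not called, but it read below 4 in every array of that line and cannot show a fall there. A weaker probe set of ELOVL6 fell by 0.96 in MOLM-13, against the uncalled 0.19 of the main one. SREBF2 had 1 probe set that rose by 0.41 in MOLM-13 and 1 that fell by 0.19. The second probe set of SREBF1 changed by 0.31, not called. Where all probe sets of a gene were averaged instead of the brightest being taken, MOLM-13 calls changed for DHCR7 (-0.95, called), FADS2 (-0.24, not called) and ELOVL6 (-0.34, called). The same average on MV4-11 day 6 gave -0.26 for SREBF2, called, and 0.16 for ELOVL6, not called, and on day 2 it gave -0.55 for HMGCS1, not called, and 0.38 for ELOVL6 and -0.24 for SREBF2, both called. These averages include the ELOVL6 probe sets that read below 4 in MV4-11 and the FADS2 probe set that did so in MOLM-13.

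The 3′ minus 5′ difference moved with treatment in MOLM-13, where the treated range of 2.10 to 2.84 lay above the vehicle range of 0.954 to 1.15. With that difference as a covariate of the limma model, an alternative chosen after the values were seen, 17 genes were called lower in MOLM-13 in place of 20. The calls of MVK (-0.38), MVD (0.05), EBP (0.04), ACACA (-0.01), STARD4 (-0.004) and SCAP (0.14) were lost, and MSMO1 and SREBF1 gained calls at -0.82 each. On MV4-11 day 4 and day 6 the covariate left 25 and 23 genes called lower, the same counts as without it, and ELOVL6 lost its day 6 call at 0.36.

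**Figure D5:**
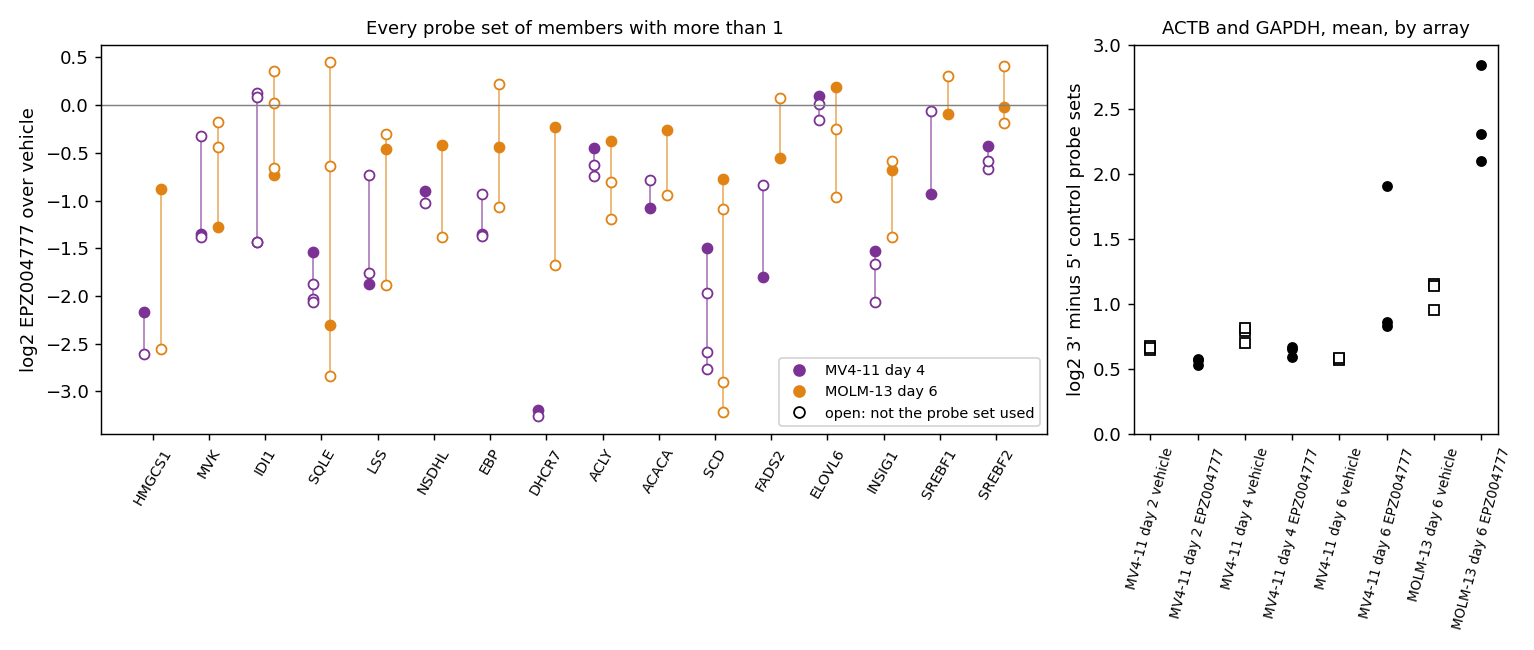
Left, log2 change of every probe set of the 16 genes with more than 1, on MV4-11 day 4 and in MOLM-13 day 6; filled points are the probe sets used, open points the others. Right, the mean 3′ minus 5′ difference of the ACTB and GAPDH controls in each array (log2; squares vehicle, circles EPZ004777), which is highest in the 3 treated MOLM-13 arrays.

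A further list of 36 genes of sterol and fatty acid metabolism, not among the 31, was also read. Of these, 29 were tested. On MV4-11 day 2, 2 fell and 1 rose, against 3.68% of all genes called lower and 8.82% higher. On day 4, 14 fell and 4 rose, against 21% and 25.2%. On day 6, 14 fell and 9 rose, against 28.4% and 33.6%, so the share that rose was near that of all genes. In MOLM-13, 18 fell and 3 rose, against 36.5% and 29.3%. The median changes were 0.01, -0.15, -0.19 and -0.43. MMAB, a cobalamin enzyme whose gene lies beside MVK, fell, changing by -0.29, -1.26 and -1.34 on the MV4-11 days. ACSL1, which activates long-chain fatty acids, fell, with changes of -0.63, -1.98 and -1.44, and AACS, which makes acetoacetyl-CoA in the cytosol, fell, changing by -0.88 on day 4 and -0.53 on day 6. SOAT1, which esterifies cholesterol for storage, rose by 0.46, 1.08 and 1.25. LBR, a sterol reductase of the nuclear envelope, changed by -0.19 on day 2 (not called), by -0.59 on day 4 and by -0.35 on day 6, both called, and by 0.12 in MOLM-13 (not called).

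In MOLM-13 the 4 genes of that list with the smallest adjusted p were other ones. MBTPS2, a protease that releases SREBPs, fell by 1.16, where on MV4-11 day 6 it rose by 0.30. ELOVL5, an elongase of polyunsaturated chains, fell by 0.87, ACSL5, which activates fatty acids, fell by 1.11 and HACD3, a dehydratase of chain elongation, fell by 0.68. The differences between the lines were not tested for this list.

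Because the sterol genes moved together, their promoters were read from RefSeq (GRCh38.p14), as the 250 bases before each start. Of the 31 genes, 27 had such a promoter in the table, and ACAT2, FDFT1, SQLE and FASN did not. Searched on both strands, the sterol regulatory element TCACNCCAC was found in 1 of the 27, SREBF2, and in 1.09% of all 27305 genes. A longer, exact form of the element overlapped that match and was found in no other of the 27, against 0.0439% of all genes. The box CCAAT, the letters known for the factor NF-Y that acts beside SREBPs, was found in 20 of the 27 (74.1%) and in 37% of all genes. It was in 13 of 15 sterol genes, 4 of 7 fatty acid genes and 3 of 5 regulators. At least 2 such boxes were in 13 of the 27 (48.1%) and in 11.5% of all genes. Among genes with a single start, CCAAT was in 13 of 19 (68.4%) against 33.4%. The E-box CACGTG was found in SC5D, INSIG1 and SCAP, 11.1% of the 27 against 7.73% of all genes. A match is a run of letters and not a shown binding site, and no share here was tested.

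The promoter of SREBF2 is shown for the only match to the element. Those of MVK, HMGCS1, SCD and STARD4 are shown as the genes lowered most on MV4-11 day 6 (2 sterol, 1 fatty acid and 1 carrier gene) with a CCAAT box at their farthest upstream start. These 4 were picked after the matches were seen. Each runs 5′ to 3′ on the gene's strand, and capitals mark CCAAT, its reverse complement ATTGG and the element. They lie at chr22:41832855-41833104 (plus strand), chr12:109573544-109573793 (plus), chr5:43313413-43313662 (minus), chr10:100346983-100347232 (plus) and chr5:111512536-111512785 (minus), in the order shown.
SREBF2: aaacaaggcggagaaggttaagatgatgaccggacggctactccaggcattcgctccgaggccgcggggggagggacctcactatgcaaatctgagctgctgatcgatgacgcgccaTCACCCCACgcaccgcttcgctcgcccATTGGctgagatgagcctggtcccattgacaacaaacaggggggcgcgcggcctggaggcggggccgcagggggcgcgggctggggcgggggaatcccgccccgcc
MVK: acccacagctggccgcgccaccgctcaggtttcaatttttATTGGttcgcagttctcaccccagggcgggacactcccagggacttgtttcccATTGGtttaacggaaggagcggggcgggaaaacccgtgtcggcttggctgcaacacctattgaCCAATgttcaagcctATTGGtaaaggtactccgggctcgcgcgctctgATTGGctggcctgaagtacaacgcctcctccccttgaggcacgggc
HMGCS1: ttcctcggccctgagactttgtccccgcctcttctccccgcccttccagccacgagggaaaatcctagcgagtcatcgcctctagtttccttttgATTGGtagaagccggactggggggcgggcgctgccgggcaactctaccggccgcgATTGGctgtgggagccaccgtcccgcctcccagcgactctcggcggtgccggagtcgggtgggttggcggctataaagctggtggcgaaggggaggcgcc
SCD: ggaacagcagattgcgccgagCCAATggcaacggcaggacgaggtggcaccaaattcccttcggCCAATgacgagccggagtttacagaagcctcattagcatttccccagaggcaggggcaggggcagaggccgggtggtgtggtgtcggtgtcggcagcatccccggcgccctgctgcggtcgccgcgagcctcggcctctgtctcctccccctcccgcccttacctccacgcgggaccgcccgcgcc
STARD4: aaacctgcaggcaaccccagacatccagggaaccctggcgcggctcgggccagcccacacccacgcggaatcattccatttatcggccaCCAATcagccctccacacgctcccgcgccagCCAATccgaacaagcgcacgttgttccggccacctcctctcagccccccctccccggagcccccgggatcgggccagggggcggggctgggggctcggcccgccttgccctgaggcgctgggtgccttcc

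MVK held 5 boxes in this window, and HMGCS1, SCD and STARD4 held 2 each. SREBF2 held 1 box and changed by -0.05 on MV4-11 day 6, not called. The other 4 genes changed by -2.69, -1.83, -1.79 and -2.57 on that day. They were picked for that fall, so their contrast with SREBF2 was fixed by the choice. The search took only the letters given, in 250 bases, so other forms of the element would be missed. Whether the element goes with the change was not tested.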

How the data were processed

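RNA of 24 samples was measured on Affymetrix arrays, 1 array per sample. The deposited values are 1 intensity per probe set and array on a linear scale. The submitters' processing notes name GCRMA, without a version. That method adjusts background by probe sequence, so dim probe sets sit at a shared floor, and quantile normalizes the arrays. Intensities ran from 4.55 to 71593, and log2 was taken with a pseudocount of 0.

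Of 54675 probe sets, 62 controls were left out, 41097 were listed with 1 gene symbol and 1801 with several, and 11777 had none and stayed unnamed. A probe set was kept with log2 of at least 4 in at least 3 arrays, and the brightest on average was used for its gene. limma 3.58.1 (R 4.3.3) was fitted to 8 group means over all 24 arrays and tested on simulated data. The labels call the replicates biological without saying how they were made, so p-values measure the spread between these samples. Array number, with 3 per group, limits precision.

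Members and lists were chosen with earlier results of these data known. Values per array were printed for the 4 sterol, 3 fatty acid and 3 regulator genes with the smallest adjusted p on MV4-11 day 6, for genes called against their class and for genes whose probe sets differ in sign. From the further list of 36 genes, the 4 with the smallest adjusted p in each comparison were named. Alternatives covered the filter, the log offset (log2 of the value plus 16), normalization, the probe set per gene, the arrays in the fit, the variance prior, a replicate block and each array left out. The 3′ minus 5′ covariate and the test of each probe set apart were chosen after seeing the data.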

Additional observations from a re-analysis of the deposited data

Results flagged for a closer look

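The changes under EPZ004777 differed between MV4-11 days 2 and 4 for 24 genes, by a test of the difference itself. The day 4 vehicle levels enter these differences. Day 4 minus day 2, the log2 change differed among the upper sterol steps by -1.22 for ACAT2, -1.63 for HMGCS1, -1.61 for MVD, -1.04 for IDI1, -1.04 for FDPS, -1.36 for SQLE and -1.43 for LSS. Among the later sterol steps it differed by -0.86 for TM7SF2, -1.41 for MSMO1, -0.71 for NSDHL, -0.75 for HSD17B7, -1.12 for EBP, -0.78 for SC5D and -2.64 for DHCR7. Among the fatty acid genes the difference was -0.36 for ACLY, -0.79 for ACACA, -1.33 for FASN, -1.22 for SCD, -1.41 for FADS2 and -0.85 for ACSS2. Among the regulators and carriers it was -1.16 for INSIG1, -0.78 for SREBF1, -0.32 for SREBF2 and -1.65 for STARD4.

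Between days 4 and 6 the change differed for 9 genes. Day 6 minus day 4, the sterol genes gave -1.34 for MVK, 0.45 for NSDHL and 0.47 for HSD17B7. The fatty acid genes gave -0.32 for ACACA, -0.58 for FADS2 and 0.73 for ACSS2. The regulators gave -0.83 for SREBF1, 0.38 for SREBF2 and 0.35 for SCAP.

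Between the lines the day 6 change differed for 19 genes, MOLM-13 minus MV4-11. The upper sterol steps gave 0.57 for ACAT2, 0.95 for HMGCS1, 1.41 for MVK, -0.44 for PMVK, 0.78 for MVD, 0.64 for IDI1 and 0.70 for FDPS. The later sterol steps gave 1.34 for LSS, 1.25 for MSMO1, 0.72 for HSD17B7, 1.23 for EBP and 3.34 for DHCR7. The fatty acid genes gave 1.14 for ACACA, 0.94 for FASN, 1.02 for SCD and 1.82 for FADS2, and the regulators and carriers gave 0.58 for INSIG1, 1.67 for SREBF1 and 1.80 for STARD4. The treated MOLM-13 arrays also had the largest 3′ minus 5′ differences (2.10 to 2.84), as given with the MOLM-13 results.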

How the results depend on the processing

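On MV4-11 days 4 and 6 and in MOLM-13, the counts of genes called lower stayed at 25, 23 and 20 with any single array left out. The day 2 count of 13 ranged from 3 to 12 when single arrays were left out. The count of genes whose change was higher on day 6 than on day 4, 5 in the report, was 3 with no filter, 3 with arrays shifted to a common median, 3 with only the arrays compared and 1 with the 3′ minus 5′ covariate, and ranged from 3 to 6 with single arrays left out. With the mean of all probe sets of a gene, the sterol class mean changed by -1.35 on day 4. The fatty acid class mean then changed by -0.97 on day 4, -1.24 on day 6, -0.62 in MOLM-13 and -0.85 for day 4 against day 2 and 6 vehicle, and day 4 vehicle differed from that of days 2 and 6 by 0.12. Signs turned in MOLM-13 for MVD (0.047) and EBP (0.043) with the covariate and for ELOVL6 (-0.34) with the mean of probe sets. With that mean, the difference between lines turned for SQLE (1.24), and the vehicle difference of MOLM-13 from MV4-11 turned for HMGCS1 (-0.15) and SREBF2 (0.11). The cause was not tested.

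Replicate numbers did not pair the samples: deviations of same-numbered arrays correlated at -0.26 to 0.10. With the replicate block, 12 genes were called lower on day 2, 25 on day 4, 23 on day 6 and 20 in MOLM-13, and FADS2 lost its day 2 call (adjusted p = 0.0601). SREBF2 lost its call between days 2 and 4, HSD17B7 lost its call between days 4 and 6, and ACAT2 gained a call between the lines' vehicle cultures. The lowest signal limits dim probe sets, since values at the floor have no order.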
